A study of Mus musculus with 12 samples.

Results

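The Notch genes described here are 10 genes in 3 roles: the 4 receptors Notch1, Notch2, Notch3 and Notch4, the 4 ligands Jag1, Jag2, Dll1 and Dll4, and the 2 target genes Hes1 and Hey1. They were picked by symbol from the probe annotation of a mouse whole-genome array, with every probe of each symbol, which gave 14 of the 41174 probes and 10 of the 19526 named genes on it. 7 of the genes had 1 probe, Notch1 and Jag1 had 2 each, and Notch2 had 3. All 14 probes were kept and tested. Signal was well above background in all 12 samples for 13 of the 14 probes, and none was saturated in any sample.

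The RNA came from femoral growth plate cartilage of Swiss White mice aged 14 days, from which the proliferative, prehypertrophic and hypertrophic zones were cut out of frozen sections. In the proliferative zone chondrocytes divide in columns, in the prehypertrophic zone they stop dividing, and in the hypertrophic zone they swell and mineralise the matrix next to the invading marrow. No mutation or treatment is named in the labels for any zone. There were 4 samples per zone, and the labels do not say that these came from separate animals. Tests were made on ratios between samples measured on the same array, as described below. The p-values thus measure the scatter of these ratios about the fitted model, which may be technical. Variation shared by samples on the same array does not enter that scatter, so the p-values do not measure the spread between samples of a zone.

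Notch receptors are membrane proteins that are cut when a Jagged or Delta-like ligand on a neighbouring cell binds them, and the freed intracellular part joins the DNA-binding protein RBPJ in the nucleus. Hes and Hey genes, which encode repressors of transcription, are among the best known targets of that complex. In cartilage, Notch signalling is known for its effects on chondrocyte maturation and matrix turnover, and in blood vessels for arterial and tip cell choices. A whole zone was measured, so fewer cells of a type and less RNA per cell cannot be told apart.

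Each of the 6 arrays held RNA of 2 zones, one in Cy3 and one in Cy5, and the dyes were exchanged between the 2 arrays of each pair of zones. Arrays 1 and 2 set hypertrophic against proliferative RNA, arrays 3 and 4 hypertrophic against prehypertrophic RNA, and arrays 5 and 6 prehypertrophic against proliferative RNA. Between 92.6% and 96.2% of spots were well above background per sample, and the median processed signal was 519.6 to 697.4. Levels over all probes correlated at 0.958 to 0.974 within a zone and at 0.889 to 0.962 between zones. A level below is the log2 channel signal less the 75th percentile of that sample. A difference is a log2 difference between zones from the linear model fitted to the ratios within arrays, given with its standard error and a p adjusted over all 39906 probes tested, and a gene counted as changed where that p was under 0.05. For a gene with several probes, counts use the one with the brightest mean signal. Levels of different probes are not compared with each other.

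Hes and Hey proteins are known to bind the E-box CACGTG and the class C site CACGCG, and RBPJ binds the core GTGGGAA. RefSeq promoter windows of build GRCm38.p6, from 250 bases before to 50 bases after a gene start, were at hand for 8 of the 10 genes in 9 windows, with none at hand for Hes1 and Hey1. On either strand, GTGGGAA was in 0 of the 9 windows (6.38% of 32851 windows of the same length hold it), and CACGTG was also in 0 (7.15% of windows). CACGCG was in the windows of Dll4, Jag1, Notch2, Jag2 and 1 of the 2 of Dll1 (9.27% of windows). The windows of Jag1 and Notch2 are shown because each of these genes had a probe that was lowest in the prehypertrophic zone, as Hey1 was. Another Notch2 probe was highest in that zone, and the brighter Jag1 probe was not called. Dll4, Jag2 and Dll1, whose windows also hold CACGCG, were not called lowest there. The 9 windows were 55.7% to 86% G or C, and the 9.27% was not matched for that. A link of these sites to Hey1 was not tested. Capitals mark CACGCG or its reverse complement CGCGTG, which start 249 and 171 bases before the gene start in Jag1 and 42 bases before it in Notch2.
Jag1, chr2:137116471-137116770, minus strand: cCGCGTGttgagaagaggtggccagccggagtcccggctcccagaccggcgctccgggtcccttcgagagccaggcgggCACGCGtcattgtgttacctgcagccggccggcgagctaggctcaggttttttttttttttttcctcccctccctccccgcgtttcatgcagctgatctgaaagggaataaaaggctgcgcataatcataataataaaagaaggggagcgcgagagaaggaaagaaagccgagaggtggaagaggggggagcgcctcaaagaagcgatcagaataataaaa
Notch2, chr3:98013288-98013587, plus strand: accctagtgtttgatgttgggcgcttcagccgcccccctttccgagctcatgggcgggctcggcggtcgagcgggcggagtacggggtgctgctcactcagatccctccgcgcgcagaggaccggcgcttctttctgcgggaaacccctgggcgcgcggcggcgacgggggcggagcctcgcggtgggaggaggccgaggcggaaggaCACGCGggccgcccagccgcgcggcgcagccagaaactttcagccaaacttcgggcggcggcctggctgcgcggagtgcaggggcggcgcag
A match of letters is a description and does not show that a factor binds there.

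By the brightest probe and the ratios within arrays, hypertrophic cartilage had more RNA of all 4 receptors and of Hey1 than proliferative cartilage, and less of the endothelial ligand Dll4. For Notch2, 1 of its 3 probes was called in the opposite direction, by 0.11. Of the 10 genes, 6 rose in the hypertrophic against the proliferative zone (Notch1, Notch2, Notch3, Notch4, Dll1 and Hey1), Dll4 fell, and Jag1, Jag2 and Hes1 did not pass. Called genes were thus 7 of 10, where 62.1% of all 19327 genes tested were called, 30.4% higher and 31.7% lower. The median difference of the 10 genes was 0.27, beside -0.03 over all genes. Changes of at least 2-fold by the brightest probe were seen in Hey1 and Notch4, where 9.86% of all genes were higher by at least that much.

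Against the proliferative zone the prehypertrophic zone had higher Notch1 and Dll1 and lower Notch2, Dll4 and Hey1. These are 5 of 10 genes, where 48.7% of all genes were called, and the median difference was -0.16 beside 0.02 over all genes. Of all genes, 24.3% were higher and 24.5% lower. By the brightest probe none of the 10 reached 2-fold in that comparison, where 3.6% of all genes were called and at least 2-fold higher. The dimmer Notch1 probe was 2.57-fold higher (adjusted p = 0.00121). The dimmer Jag1 probe was 4.41-fold lower (adjusted p = 0.0281), with 1 of 4 prehypertrophic samples well above background. Between the hypertrophic and prehypertrophic zones, Notch1, Notch2, Notch3, Notch4 and Hey1 were higher in the hypertrophic zone by the fitted ratios and Dll4 was lower. The step of Notch1 was the smallest of these, at 0.17, and its mean levels over all arrays ran the other way (-0.84 in the hypertrophic and -0.71 in the prehypertrophic zone). These are 6 of 10 genes, where 61.5% of all genes were called, 30.8% higher and 30.7% lower, with a median difference of 0.21 beside -0.03. Hey1 and Notch4 again passed 2-fold by the brightest probe, where 8.12% of all genes were higher by that much. In each comparison the share of Notch genes called was near the share of all genes, so the counts show no more than that background. Counted by probe, 8 of the 14 rose and 2 fell in the hypertrophic against the proliferative zone, where 55.4% of all probes were called, 27.6% higher and 27.8% lower. In the prehypertrophic against the proliferative zone 4 rose and 4 fell (42.3% of all probes called, 21.3% higher and 21% lower), and in the hypertrophic against the prehypertrophic zone 8 rose and 2 fell (53.8% called, 27.2% higher and 26.7% lower). The 3 comparisons share samples and are not independent of each other.

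**Figure D1:**
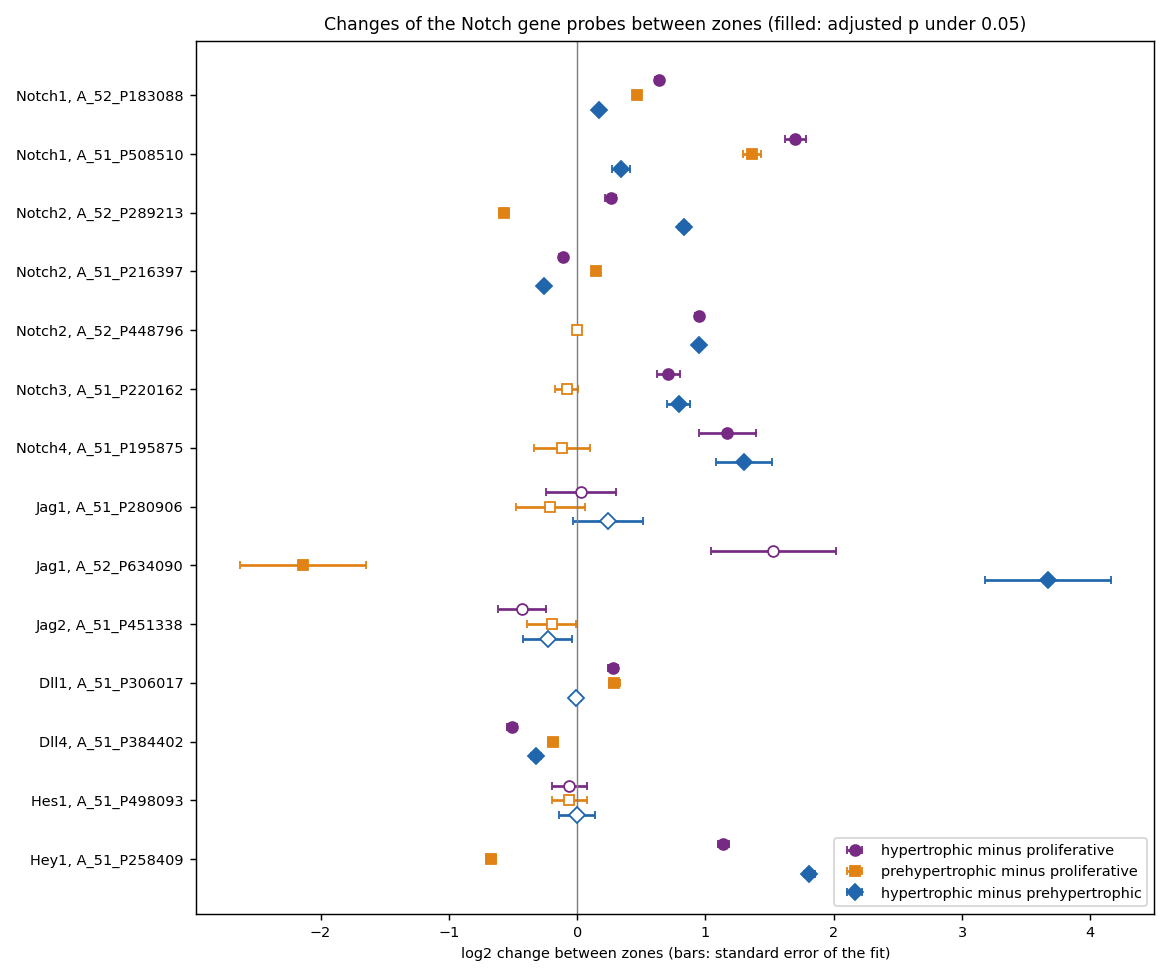
Difference between zones (log2, horizontal axis) for each of the 14 probes, with bars for the standard error of the fit and filled symbols for an adjusted p under 0.05. Hey1 stands at 1.14, -0.67 and 1.81 in the 3 comparisons, and the 3 probes of Notch2 point different ways.

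Hey1, the target gene of the set with the most regular pattern, was lowest in the prehypertrophic and highest in the hypertrophic zone. Its levels were -0.61, -0.62, -0.63 and -0.81 in proliferative replicates 1 to 4, -1.30, -1.26, -1.26 and -1.52 in prehypertrophic replicates 1 to 4, and 0.57, 0.36, 0.38 and 0.41 in hypertrophic replicates 1 to 4. The 3 zones did not overlap, with every hypertrophic sample above every proliferative one and every prehypertrophic sample below both. The difference was 1.14 ± 0.04 for hypertrophic against proliferative (2.20-fold, adjusted p = 9.56e-05), -0.67 ± 0.04 for prehypertrophic against proliferative (1.60-fold lower, adjusted p = 0.000669) and 1.81 ± 0.04 for hypertrophic against prehypertrophic (3.51-fold, adjusted p = 7.47e-05). On the arrays themselves, hypertrophic over proliferative gave 1.27 and 1.08, prehypertrophic over proliferative -0.67 and -0.75, and hypertrophic over prehypertrophic 1.77 and 1.78. Each pair of dye-exchanged arrays pointed the same way. All 3 calls held under every alternative run.

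Hes1, the other target, showed no such pattern. Its levels ran from -3.84 to -2.89 in the proliferative, -4.52 to -2.52 in the prehypertrophic and -4.42 to -2.73 in the hypertrophic zone, so the 3 zones overlapped nearly throughout. The differences were -0.06 ± 0.14 for hypertrophic against proliferative, -0.06 ± 0.14 for prehypertrophic against proliferative and 0.00 ± 0.14 for hypertrophic against prehypertrophic (adjusted p of 0.757, 0.782 and 0.996). Within arrays its ratios changed sign between dye-exchanged arrays in every pair of zones, at -0.39 and 0.19, -0.29 and 0.25, and 0.19 and -0.10. Its processed signal was 72.6 to 303, and no zone difference was detectable at this signal and number of arrays.

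Genes whose level moved most like Hey1 over the 12 samples were Nipa1 (Pearson r = 0.999), Dnajc2 (r = 0.998) and Lef1 (r = 0.997), a transcription factor of the Wnt pathway. These correlations describe 12 samples in 3 zones that share arrays, and the genes were picked from all genes for this likeness. Lef1 differed by 2.31 between hypertrophic and proliferative, -1.49 between prehypertrophic and proliferative and 3.80 between hypertrophic and prehypertrophic zones, and Nipa1 by 0.84, -0.53 and 1.36 in the same order.

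**Figure D2:**
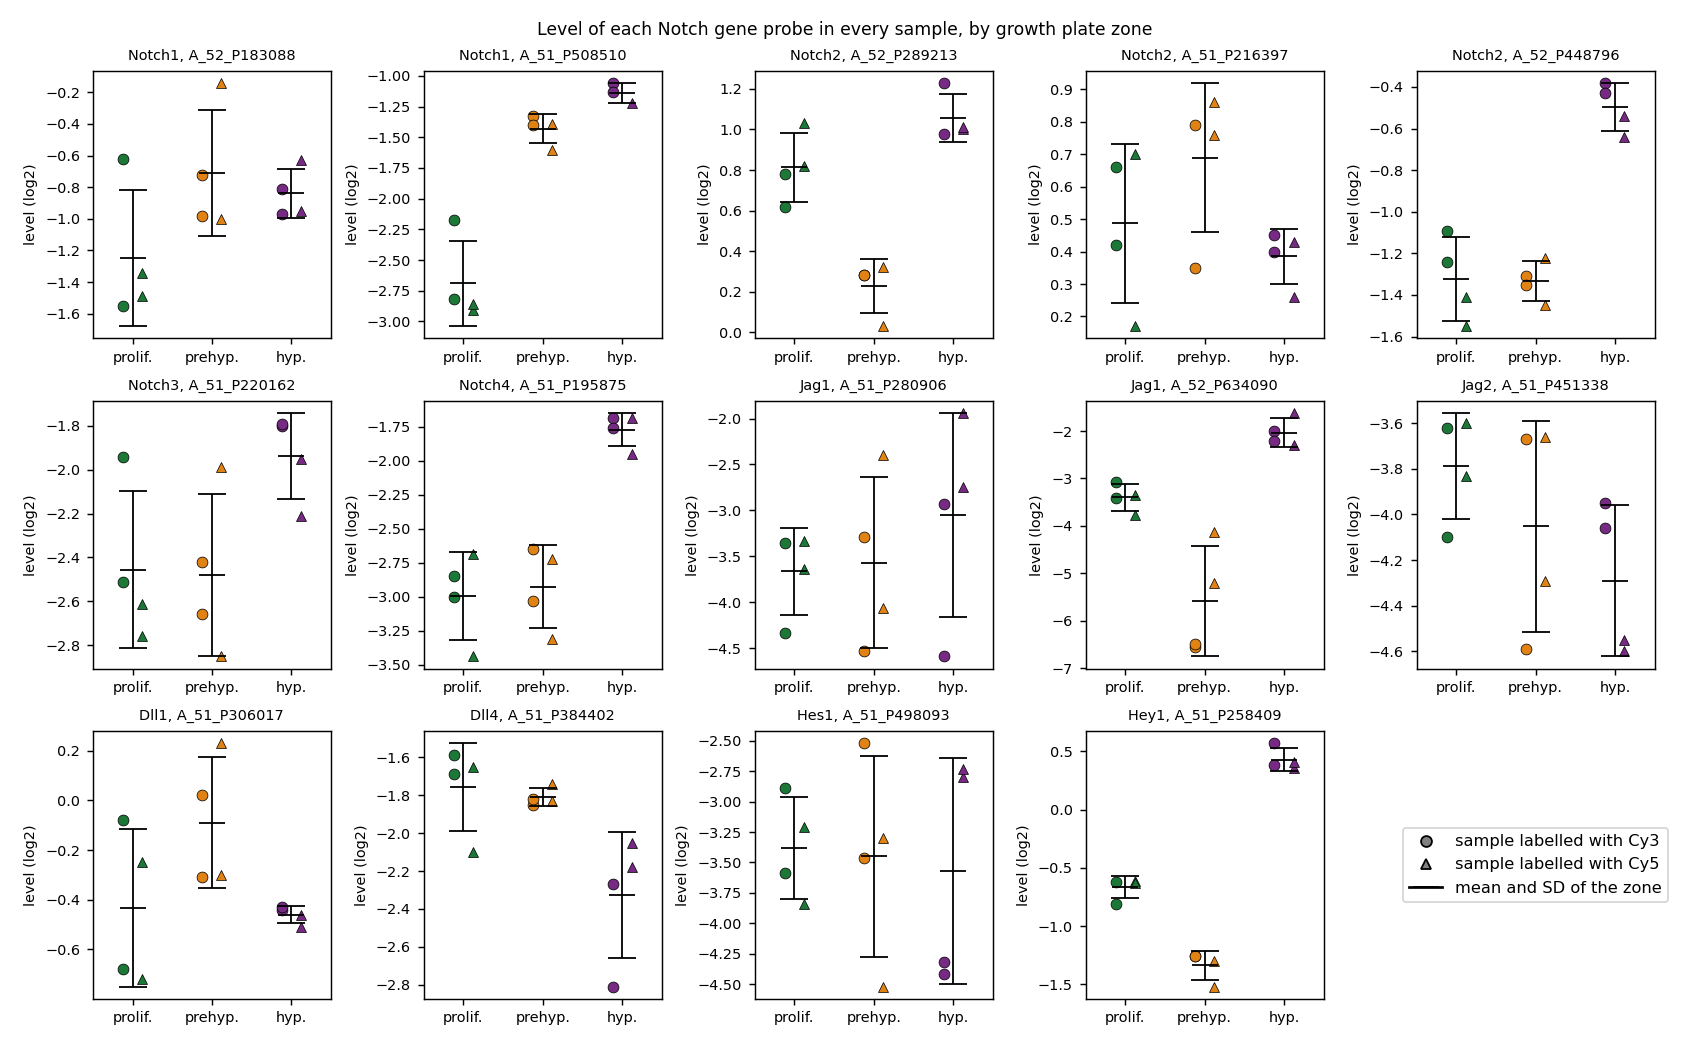
Level of each of the 14 probes (log2 relative to the sample's 75th percentile, vertical axis) in every sample, by zone, with circles for Cy3, triangles for Cy5 and bars for the mean and SD of 4 samples (3 in the hypertrophic zone for Notch1 probe A_51_P508510). Hey1 separates all 3 zones, Notch4 lies at -1.95 to -1.69 in the hypertrophic zone and at or below -2.65 in the other samples, and Hes1 overlaps in all zones.

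Notch4, a receptor best known from endothelial cells, was higher in hypertrophic cartilage than in either other zone. Its levels were -3.44, -2.85, -2.69 and -3.00 in proliferative replicates 1 to 4, -2.72, -2.65, -3.03 and -3.31 in prehypertrophic replicates 1 to 4, and -1.69, -1.95, -1.76 and -1.69 in hypertrophic replicates 1 to 4. All 4 hypertrophic samples lay above the other 8, among which proliferative and prehypertrophic samples were mixed. The difference was 1.17 ± 0.22 for hypertrophic against proliferative (2.25-fold, adjusted p = 0.0121), 1.30 ± 0.22 for hypertrophic against prehypertrophic (2.46-fold, adjusted p = 0.00937) and -0.12 ± 0.22 for prehypertrophic against proliferative (adjusted p = 0.701). Without array 2 the difference between hypertrophic and proliferative was 1.20 and its adjusted p was 0.0615. The genes most like Notch4 over the 12 samples were Vegfc (r = 0.975), a growth factor for lymphatic vessels, Tmem45a2 (r = 0.972) and Slc9a3r1 (r = 0.965).

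Notch3, the receptor known from the smooth muscle and pericytes of vessel walls, was also higher in the hypertrophic zone. Its levels ran from -2.76 to -1.94 in the proliferative, -2.85 to -1.99 in the prehypertrophic and -2.21 to -1.79 in the hypertrophic zone, and the ranges overlapped because proliferative replicate 4 and prehypertrophic replicate 4, which share array 6, were high. Within arrays the ratio of hypertrophic to proliferative RNA was 0.89 and 0.39, and that of hypertrophic to prehypertrophic RNA 1.15 and 0.58. The fitted differences were 0.71 ± 0.09 for hypertrophic against proliferative (adjusted p = 0.00296), 0.79 ± 0.09 for hypertrophic against prehypertrophic (adjusted p = 0.00234) and -0.08 ± 0.09 for prehypertrophic against proliferative (adjusted p = 0.520). Without array 6 that last difference was -0.22, with an adjusted p of 0.0313.

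Notch1 increased along the axis of maturation by the differences within arrays, and both of its probes had the same order of zones by that measure. On the brighter probe, A_52_P183088, the levels were -1.34, -1.55, -1.49 and -0.62 in proliferative replicates 1 to 4, -1.0, -0.72, -0.98 and -0.14 in prehypertrophic replicates 1 to 4, and -0.81, -0.95, -0.97 and -0.63 in hypertrophic replicates 1 to 4. The zones overlapped in level, since both samples of array 6, proliferative replicate 4 and prehypertrophic replicate 4, were the highest of their zones. The test uses ratios within arrays, and it gave 0.64 ± 0.03 for hypertrophic against proliferative (1.56-fold, adjusted p = 0.000163), 0.47 ± 0.03 for prehypertrophic against proliferative (1.38-fold, adjusted p = 0.000655) and 0.17 ± 0.03 for hypertrophic against prehypertrophic (1.13-fold, adjusted p = 0.0105).

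The dimmer Notch1 probe, A_51_P508510, showed larger differences. Its levels were -2.91, -2.17, -2.86 and -2.82 in proliferative replicates 1 to 4, -1.39, -1.33, -1.40 and -1.60 in prehypertrophic replicates 1 to 4, and -1.06, -1.13 and -1.22 in hypertrophic replicates 1, 3 and 4. The value of hypertrophic replicate 2 had an outlier flag and was left out, which leaves 1 direct ratio of hypertrophic to proliferative RNA, 1.94 on array 1. The 3 zones did not overlap on this probe. The differences were 1.70 ± 0.08 for hypertrophic against proliferative (3.26-fold, adjusted p = 0.000731), 1.36 ± 0.07 for prehypertrophic against proliferative (2.57-fold, adjusted p = 0.00121) and 0.34 ± 0.07 for hypertrophic against prehypertrophic (1.27-fold, adjusted p = 0.0279). The smaller step, between the hypertrophic and prehypertrophic zones, lost its call without array 4 on both probes (adjusted p of 0.0676 on the brighter and 0.195 on the dimmer), and on the dimmer probe also without array 5 (0.0904) or array 6 (0.0669). With both probes averaged it was 0.18, with an adjusted p of 0.164, and on the brighter probe it was 0.10 with the replicate block (adjusted p = 0.414).

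Notch2 gave 3 probes that did not move together. On the brightest, A_52_P289213, the levels were 1.03, 0.78, 0.82 and 0.62 in proliferative replicates 1 to 4, 0.32, 0.28, 0.28 and 0.03 in prehypertrophic replicates 1 to 4, and 1.23, 1.00, 0.98 and 1.01 in hypertrophic replicates 1 to 4. The prehypertrophic samples lay below all others, and the hypertrophic and proliferative samples overlapped slightly. The differences were 0.26 ± 0.04 for hypertrophic against proliferative (1.20-fold, adjusted p = 0.00670), -0.57 ± 0.04 for prehypertrophic against proliferative (1.48-fold lower, adjusted p = 0.000855) and 0.83 ± 0.04 for hypertrophic against prehypertrophic (1.78-fold, adjusted p = 0.000252).

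The Notch2 probe A_52_P448796 differed in the hypertrophic zone and not between the other zones. Its levels were -1.55 to -1.09 in the proliferative, -1.45 to -1.22 in the prehypertrophic and -0.64 to -0.38 in the hypertrophic zone, and all 4 hypertrophic samples lay above the other 8. The differences were 0.95 ± 0.03 against the proliferative zone (adjusted p = 4.34e-05) and 0.95 ± 0.03 against the prehypertrophic zone (adjusted p = 7.84e-05), while prehypertrophic against proliferative gave 0.00 ± 0.03 (adjusted p = 0.945).

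The Notch2 probe A_51_P216397 had the opposite sign to the brightest one in all 3 comparisons. Its levels were 0.17 to 0.70 in the proliferative, 0.35 to 0.86 in the prehypertrophic and 0.26 to 0.45 in the hypertrophic zone, all overlapping. The differences were -0.11 ± 0.03 for hypertrophic against proliferative (adjusted p = 0.0294), 0.15 ± 0.03 for prehypertrophic against proliferative (adjusted p = 0.0150) and -0.26 ± 0.03 for hypertrophic against prehypertrophic (adjusted p = 0.00221). The call for hypertrophic against proliferative was lost without any 1 of the 6 arrays (adjusted p of 0.0562 to 0.153), and that for prehypertrophic against proliferative without array 4 (0.0571), array 5 (0.107) or array 6 (0.0649), and with the replicate block (0.0513). With the 3 probes averaged, the differences were 0.37, -0.14 and 0.51 (adjusted p of 0.000820, 0.0245 and 0.000434), so the prehypertrophic drop is smaller than on the brightest probe. Of the 8414 genes with at least 2 tested probes, 14% had called probes in both directions between hypertrophic and proliferative zones, 8.84% between prehypertrophic and proliferative zones and 13.8% between hypertrophic and prehypertrophic zones. The array annotation gives the same RefSeq transcript for all 3 Notch2 probes, and their positions along it were not analysed here.

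**Figure D3:**
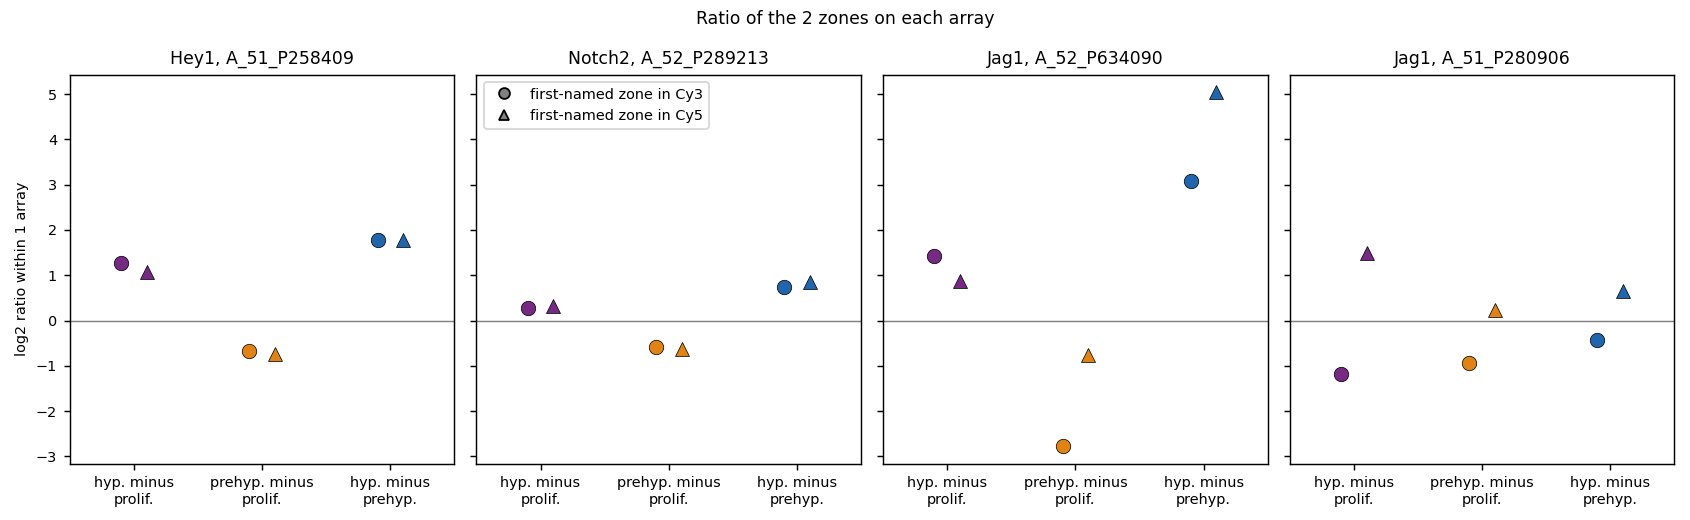
Ratio of the 2 zones on each array (log2, vertical axis) for Hey1, the brightest Notch2 probe and both Jag1 probes, with circles and triangles for the dye of the zone named first. Dye-exchanged arrays gave the same sign for Hey1, Notch2 and Jag1 probe A_52_P634090, and opposite signs in all 3 pairs of zones for Jag1 probe A_51_P280906.

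Among the ligands, Jag1 rests on 2 probes of the same annotated transcript that differed in their readings. Jagged1 is a ligand known from perichondrium, vessel walls and bone-forming cells. On the brighter probe, A_51_P280906, the levels were -3.33, -3.35, -3.64 and -4.34 in proliferative replicates 1 to 4, -2.40, -3.29, -4.53 and -4.06 in prehypertrophic replicates 1 to 4, and -4.59, -1.94, -2.93 and -2.75 in hypertrophic replicates 1 to 4. The zones overlapped, and the sample in Cy5 was the brighter one on 6 of 6 arrays, by 0.24 to 1.50. No difference passed, at 0.03 ± 0.27, -0.21 ± 0.27 and 0.24 ± 0.27 for hypertrophic against proliferative, prehypertrophic against proliferative and hypertrophic against prehypertrophic (adjusted p of 0.943, 0.592 and 0.505). Without array 2, prehypertrophic against proliferative passed at -0.43 (adjusted p = 0.0445).

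The dimmer Jag1 probe, A_52_P634090, was highest in the hypertrophic and lowest in the prehypertrophic zone. Its levels were -3.35, -3.08, -3.77 and -3.41 in proliferative replicates 1 to 4, -5.20, -6.55, -6.50 and -4.13 in prehypertrophic replicates 1 to 4, and -2.01, -2.29, -2.22 and -1.62 in hypertrophic replicates 1 to 4. The zones did not overlap, but only 1 of the 4 prehypertrophic samples was well above background, so the size of a difference from that zone is not well measured. The fit gave 3.67 ± 0.49 for hypertrophic against prehypertrophic (adjusted p = 0.00440), -2.14 ± 0.49 for prehypertrophic against proliferative (adjusted p = 0.0281) and 1.53 ± 0.49 for hypertrophic against proliferative (adjusted p = 0.0571, not called).

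On the arrays, hypertrophic over proliferative gave 1.42 and 0.88, hypertrophic over prehypertrophic 3.07 and 5.04, and prehypertrophic over proliferative -2.77 and -0.76. Dye-exchanged arrays agreed in sign and differed in size. The prehypertrophic drop on this probe lost its call without array 1 (adjusted p = 0.0577), array 3 (0.0774), array 4 (0.0607) or array 5 (0.128), and without array 2 the hypertrophic rise over the proliferative zone passed at 2.35 (adjusted p = 0.00102). With both Jag1 probes averaged, all 3 differences passed, at 0.78, -1.18 and 1.96 (adjusted p of 0.00634, 0.00258 and 0.000478).

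Dll4, a ligand known from the tip cells of growing vessels, was the one member that fell in all 3 comparisons. Its levels were -2.10, -1.59, -1.65 and -1.69 in proliferative replicates 1 to 4, -1.74, -1.85, -1.82 and -1.83 in prehypertrophic replicates 1 to 4, and -2.81, -2.05, -2.27 and -2.18 in hypertrophic replicates 1 to 4. All hypertrophic samples lay below all prehypertrophic ones, and proliferative replicate 1 overlapped with the hypertrophic range. The differences were -0.51 ± 0.04 for hypertrophic against proliferative (1.42-fold lower, adjusted p = 0.000951), -0.32 ± 0.04 for hypertrophic against prehypertrophic (1.25-fold lower, adjusted p = 0.00454) and -0.19 ± 0.04 for prehypertrophic against proliferative (1.14-fold lower, adjusted p = 0.0297). The smallest of these was lost without array 1, 3, 4, 5 or 6 (adjusted p of 0.0643 to 0.104) and without the dye term (0.102).

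Dll1, a Delta-like ligand of developing tissues, was slightly higher in both later zones than in the proliferative zone by the ratios within arrays. Its mean level over all arrays was higher in the prehypertrophic (-0.09) but not in the hypertrophic zone (-0.46) than in the proliferative zone (-0.43). Its levels were -0.72, -0.68, -0.25 and -0.08 in proliferative replicates 1 to 4, -0.30, -0.31, 0.02 and 0.23 in prehypertrophic replicates 1 to 4, and -0.44, -0.51, -0.43 and -0.46 in hypertrophic replicates 1 to 4. Levels of the proliferative zone overlapped with both others, while every hypertrophic sample lay below every prehypertrophic one. Ratios within arrays gave 0.37 and 0.26 for hypertrophic over proliferative, 0.24 and 0.26 for prehypertrophic over proliferative, and -0.04 and -0.04 for hypertrophic over prehypertrophic. The differences were 0.28 ± 0.04 (1.21-fold, adjusted p = 0.00536), 0.29 ± 0.04 (1.22-fold, adjusted p = 0.00681) and -0.01 ± 0.04 (adjusted p = 0.922) in that order. The separation of the hypertrophic and prehypertrophic levels was thus seen between arrays and not within arrays 3 and 4. With dye-exchanged arrays averaged, the difference between prehypertrophic and proliferative zones had an adjusted p of 0.0532.

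Jag2, a ligand related to Jag1, did not pass in any comparison of the fit reported here. Its levels ran from -4.10 to -3.60 in the proliferative, -4.59 to -3.66 in the prehypertrophic and -4.60 to -3.95 in the hypertrophic zone, all overlapping. The differences were -0.43 ± 0.19 for hypertrophic against proliferative (adjusted p = 0.128), -0.20 ± 0.19 for prehypertrophic against proliferative (adjusted p = 0.464) and -0.23 ± 0.19 for hypertrophic against prehypertrophic (adjusted p = 0.374). Without array 4 the hypertrophic zone was lower than the proliferative (-0.58, adjusted p = 0.00593) and the prehypertrophic zone (-0.54, adjusted p = 0.0145). In fits of separate channels it was called lower in the hypertrophic than in the proliferative zone, at -0.45 without the replicate block (adjusted p = 0.0232) and -0.54 with it (adjusted p = 0.00131), and with the block also lower than in the prehypertrophic zone (-0.43, adjusted p = 0.0166).

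Set side by side, the levels of the 3 zones did not overlap between hypertrophic and proliferative for Hey1 and Notch4 (2 of 10, where 42.2% of all genes did not overlap), between prehypertrophic and proliferative for Notch2 and Hey1 (2 of 10, background 30.8%) and between hypertrophic and prehypertrophic for Notch2, Notch4, Dll1, Dll4 and Hey1 (5 of 10, background 46.6%). By the brightest probe, Hey1 and Notch2 were lowest in the prehypertrophic zone, with both steps along the axis called in opposite directions, as were 11.8% of all genes. None of the 10 genes was highest in the prehypertrophic zone by its brightest probe, a pattern of 11% of all genes.

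Other genes of the pathway, from lists in 6 roles, were called in both directions. Of 56 listed genes 54 were tested, and 20 rose and 14 fell in the hypertrophic against the proliferative zone, with a median of 0.06. In the prehypertrophic against the proliferative zone 19 rose and 12 fell, with a median of 0.08, and in the hypertrophic against the prehypertrophic zone 15 rose and 18 fell, with a median of -0.02. Called shares were 63%, 57.4% and 61.1%, beside the 62.1%, 48.7% and 61.5% of all genes.

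Among the ligands outside the members, Dner, a neuronal protein with Delta-like repeats, fell by 4.28 ± 0.10 in the hypertrophic and by 3.53 ± 0.10 in the prehypertrophic zone against the proliferative zone (adjusted p of 3.5e-05 and 0.000102), and its other probe fell by 2.63 and 2.38. Dll3, Dlk1 and Dlk2 were not called between hypertrophic and proliferative zones. Of 12 genes that modify or cut ligands and receptors, 6 rose and 3 fell in the hypertrophic against the proliferative zone. Furin, the protease that cuts Notch receptors during their passage through the Golgi, differed by 1.27 ± 0.04 (adjusted p = 4.91e-05), although its other probe gave -0.07 (adjusted p = 0.415). Mfng, a fringe enzyme that adds sugars to Notch, differed by 1.13 ± 0.16 (adjusted p = 0.00542), and Neurl1b, a ubiquitin ligase for Notch ligands, fell by 2.08 ± 0.14 (adjusted p = 0.000464).

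The gamma-secretase complex makes the cut that frees the intracellular part of Notch, and 1 of its 6 tested genes rose and 1 fell in the hypertrophic against the proliferative zone. Of 16 genes of the nuclear complex and its corepressors, 5 rose and 4 fell. Rbpj itself differed by 0.82 ± 0.03 (adjusted p = 8.15e-05) between hypertrophic and proliferative, by 0.80 ± 0.03 (adjusted p = 0.000139) between hypertrophic and prehypertrophic and by 0.03 ± 0.03 (adjusted p = 0.534) between prehypertrophic and proliferative zones. The coactivator Maml1 was higher by 1.24 ± 0.03 and the corepressor Cir1 by 2.18 ± 0.03 in hypertrophic than in proliferative cartilage (adjusted p of 3.97e-05 and 2.78e-05), and the Groucho-family corepressor Tle2 fell by 1.90 ± 0.05 (adjusted p = 4.32e-05). Kat2b, an acetyltransferase, was 1.42 ± 0.05 higher in the prehypertrophic than in the proliferative zone (adjusted p = 0.000139), with 0.46 on another probe. Of 9 negative regulators 4 rose and 3 fell, and Dtx3 fell by 1.44 ± 0.06 (adjusted p = 0.000130), although its other probe gave 0.27 (adjusted p = 0.247).

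Of the 7 other Hes and Hey family genes, 4 rose and 2 fell in the hypertrophic against the proliferative zone. Heyl differed by 0.84 ± 0.07 (adjusted p = 0.00110), with 0.08 on its dimmer probe (adjusted p = 0.533), Hey2 by 0.52 ± 0.10 (adjusted p = 0.0121), Hes6 by 0.28 ± 0.03 (adjusted p = 0.00188) and Hes2 by 0.26 ± 0.04 (adjusted p = 0.00747). Their dimmer probes gave -0.35 for Hes6 (adjusted p = 0.222) and -0.08 for Hes2 (adjusted p = 0.121). Hes7, known from the segmentation clock of the embryo, fell by 0.35 ± 0.08 (adjusted p = 0.0207) and Hes3 fell by 0.29 ± 0.03 (adjusted p = 0.00136), while Hes5 gave 0.25 ± 0.12 (adjusted p = 0.142). In the prehypertrophic against the proliferative zone, Hes6 rose by 0.55 ± 0.03 (adjusted p = 0.000380) and Hes2 by 0.19 ± 0.04 (adjusted p = 0.0267), Hes3 fell by 0.18 ± 0.03 (adjusted p = 0.00773), and 4 of the 7 did not pass. In that comparison the dimmer probes gave -0.18 for Hes6 (adjusted p = 0.545) and 0.05 for Hes2 (adjusted p = 0.344). None of these 7 genes fell and then rose along the axis as Hey1 did.

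**Figure D4:**
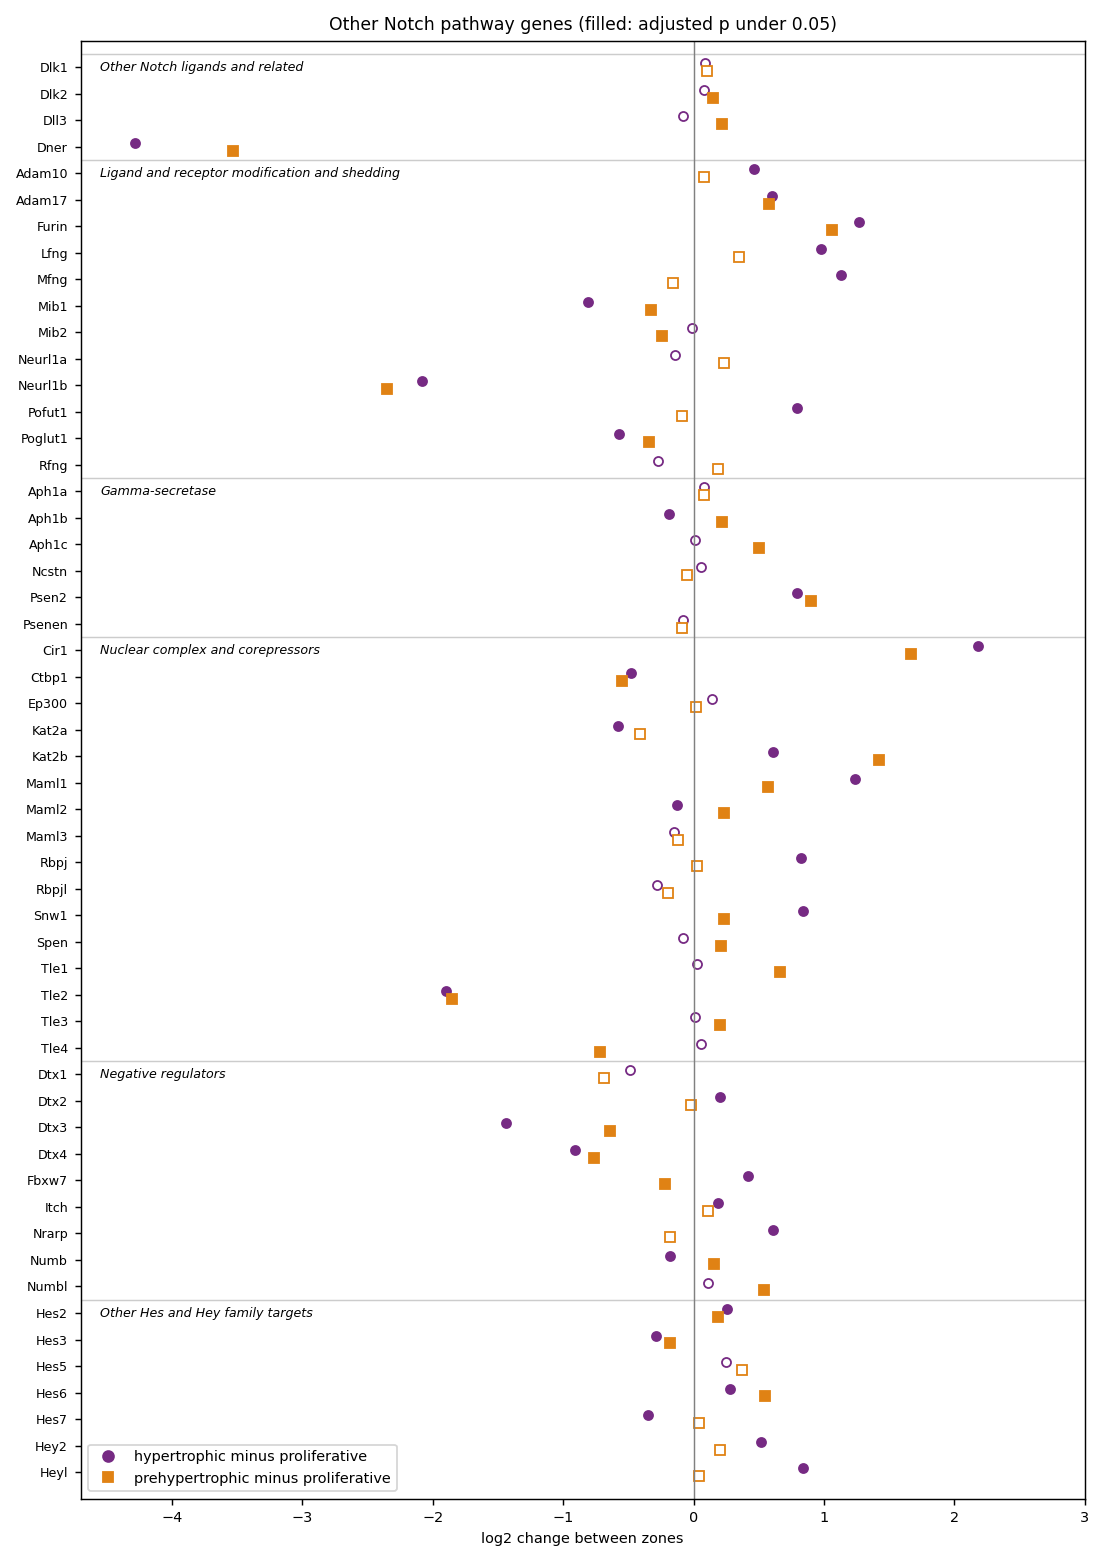
Difference (log2, horizontal axis) of 54 other Notch pathway genes by role, hypertrophic minus proliferative (circles) and prehypertrophic minus proliferative (squares), filled where the adjusted p was under 0.05. Dner stands at -4.28 and -3.53, Cir1 at 2.18 and 1.67, and most genes lie close to 0.

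The zones were checked against markers, and summed signals of endothelial, leukocyte, erythroid and osteoclast markers were higher in the hypertrophic samples. Not every marker of these lists was higher there. The 5 hypertrophic chondrocyte markers summed to 3.33 to 11.7 times the sample's 75th percentile in the proliferative, 70.5 to 137 in the prehypertrophic and 182 to 274 in the hypertrophic zone, the order of the labels. That order was the same without Ibsp and Alpl, which were saturated in some samples. A gene with an outlier flag in a sample was left out of that sample's sum. The 70.5, of prehypertrophic replicate 2, lacks Ibsp for that reason. General chondrocyte markers were bright in every sample (368 to 603, 316 to 650 and 282 to 424). Of these 8 markers, 5 were saturated in some samples, so the sums of all 8 do not measure a change. The 3 without saturation, Col9a1, Matn1 and Cnmd, summed to 67 to 87, 42.2 to 50 and 12 to 16.4 in the same order of zones. Of 3 markers of proliferating cells, Mki67 was higher (0.48 ± 0.09, adjusted p = 0.0119) and Aurkb lower (-1.45 ± 0.07, adjusted p = 0.000139) in the hypertrophic than in the proliferative zone. Both fell in the prehypertrophic against the proliferative zone, Mki67 by 3.59 and Aurkb by 5.76 (adjusted p of 8.67e-05 and 6.52e-05). The brightest probe of Top2a gave 0.19 for hypertrophic against proliferative (adjusted p = 0.0398) and 0.02 for prehypertrophic against proliferative (adjusted p = 0.793). Its other probes were not called in the first of these comparisons. In the second they fell by 2.79 and 0.80 (adjusted p of 0.00324 and 0.0184).

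Some of the Notch genes are best known from vessel walls. Of 14 endothelial markers, 10 were higher and 0 lower in hypertrophic than in proliferative cartilage, 12 were higher and 0 lower than in prehypertrophic cartilage, and 3 were higher and 2 lower in prehypertrophic than in proliferative cartilage. Kdr, the main receptor for vascular growth factor, differed by 3.66 ± 0.08, Emcn by 3.43 ± 0.11 and Cdh5 by 2.81 ± 0.16 between hypertrophic and proliferative zones (adjusted p of 3.08e-05, 5.53e-05 and 0.00109), while Pecam1 gave 0.09 ± 0.04 (adjusted p = 0.130) and Vwf -0.14 ± 0.05 (adjusted p = 0.0811). The summed endothelial signal was 4.93 to 5.79 in the proliferative, 5.87 to 6.71 in the prehypertrophic and 16.8 to 19.5 in the hypertrophic zone. Notch3 and Notch4 were called higher in the hypertrophic zone against both others and not called between the other 2 zones. Notch1 and Notch2 were also called between the prehypertrophic and proliferative zones, and Dll4 fell in the hypertrophic zone. The median of the endothelial markers between the prehypertrophic and proliferative zones was 0.10. Whether vessel cells had a part in these changes of Notch genes was not tested.

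Of 10 mural markers, which mark pericytes and smooth muscle, 6 were higher and 2 lower in hypertrophic than in proliferative cartilage. Pdgfrb differed by 3.30 ± 0.09 and Kcnj8 by 2.26 ± 0.05, with every hypertrophic sample above the other 8, while Tagln fell by 0.81 ± 0.03 (adjusted p of 4.69e-05, 3.23e-05 and 8.22e-05). Rgs5 also fell, by 0.17 ± 0.05 (adjusted p = 0.0385). Acta2 rose by 0.44 ± 0.04 (adjusted p = 0.00127), as did Cspg4, Abcc9 and Mcam, and Des and Myh11 were not called. Summed mural signals were 49.5 to 70.8, 68.6 to 119 and 76 to 108 from the proliferative to the hypertrophic zone, but 70.4% to 88.9% of each sum was Cspg4, which was saturated in 4 samples, so these sums do not measure mural cells. Without it they were 11.7 to 14.7, 13.4 to 15.3 and 11.5 to 12.

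Sums of leukocyte and marrow markers were 8.76 to 20.1, 9.41 to 22.5 and 226 to 304, and those of erythroid markers 2.16 to 6.42, 2.14 to 5.02 and 56.7 to 68.4. Without S100a9, which was saturated in some samples, the leukocyte sums were 6.96 to 13, 6.93 to 14 and 163 to 191. Osteoclast markers summed to 7.51 to 8.58, 6.88 to 8.91 and 22.3 to 24.9. Of these 7 markers, 4 were higher in hypertrophic than in proliferative cartilage. Oscar and Dcstamp were lower, by 0.11 and 0.33, and Calcr was not called. Osteoblast markers did not share 1 order: of 6, Col1a1 and Col1a2 were lowest in the prehypertrophic zone, Bglap was highest there, and Sp7 fell at each step. Their sums were 52.1 to 105, 33.8 to 41.8 and 127 to 198, carried mostly by the 2 collagens. The 52.1, of proliferative replicate 2, lacks Col1a1, which had an outlier flag there. Col1a2 was saturated in 2 hypertrophic samples, so the size of these sums is not well measured. By its brightest probe, every tested marker of the endothelial, mural, leukocyte and erythroid lists was well above background in all samples. Dimmer probes of Cdh5, Kdr, Tek, Flt1, Vwf, Acta2, Abcc9 and Ptprc were not well above background in every sample, and that of Kdr was not kept for testing. The part of these cells in the results on Notch genes was not tested.

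**Figure D5:**
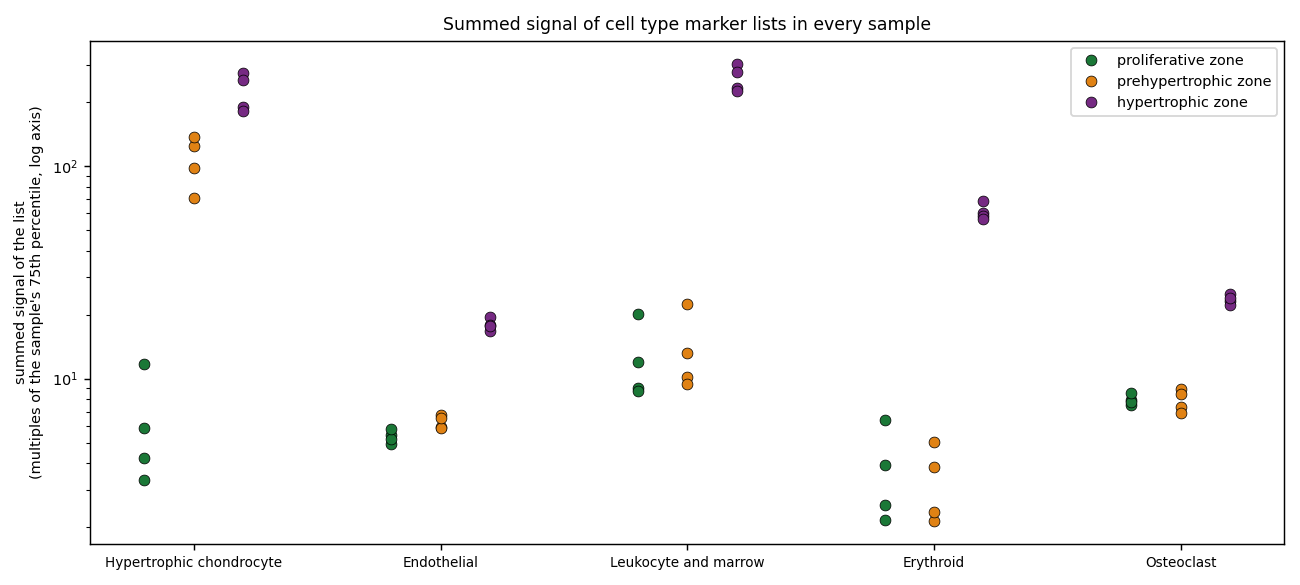
Summed signal of 5 marker lists (vertical log axis, in multiples of the sample's 75th percentile) in every sample by zone. Endothelial, leukocyte, erythroid and osteoclast sums of all 4 hypertrophic samples lie above those of the other 8.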

How the data were processed

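Femoral growth plate RNA of 12 samples, 4 per zone, was measured on 6 two-colour Agilent arrays. Per the file headers, the deposited files hold the processed signal of each spot as an intensity, background-subtracted and dye-normalized within the array, with other columns of flags per spot. It was made with Agilent Feature Extraction 8.1.1.1, per the submitters' processing notes. The genome build is not given in the sources used here. A further deposited table of processed values was not used here.

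Log2 ratios within arrays were loess-normalized in limma 3.58.1 (R 4.3.3), where control and outlier-flagged spots had weight 0. Outlier-flagged ratios (7249 in all, 4479 on array 2) were dropped, replicate spots were averaged, and a probe was kept if it was well above background in 4 or more of the 12 samples (40017 of 41174). A model with zone and dye was fitted to all probes at once (eBayes, 3 residual and 1.21 prior degrees of freedom), with Benjamini-Hochberg adjustment over 39906 probes per comparison and a threshold of 0.05. The median standard error of hypertrophic minus proliferative was 0.0592, a precision limited by the number of arrays. The fit was tested on simulated data. Deviations from the zone means of samples with the same replicate number correlated at 0.219 to 0.554 in the proliferative and prehypertrophic zones. Of these 4 pairs, 2 share an array, and the other 2 gave 0.219 and 0.28. Hypertrophic replicate 3 and proliferative replicate 4, with neither number nor array in common, gave 0.287. Whether the numbers pair the samples is thus not shown. In pairs of the same number with the hypertrophic zone the correlations did not all exceed 0.1.

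Symbols are those of the array annotation. Of the 32691 probes with 1 symbol, 32505 matched the RefSeq table, and 8483 probes had no symbol. All probes of the 10 genes are named. From the pathway lists, genes called with a log2 change of at least 1, Rbpj and the Hes and Hey families are named. For members changed by at least 1, the 3 genes most correlated over the 12 samples are named. Members and lists were chosen with earlier results of these data known. Alternatives varied the normalization, filter, flags, dye term, probes per gene, moderation, use of channels and left-out arrays.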

Additional observations from a re-analysis of the deposited data

Results flagged for a closer look

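In 41 groups of 4 levels, 1 per probe and zone of the Notch genes, 5 held a sample far from the other 3 by Dixon's test at the 95% level, and chance gives about 1 in 20. Notch1 probe A_51_P508510 was -2.17 in proliferative replicate 2, where the other 3 were -2.91 to -2.82. The brightest Notch2 probe was 0.03 in prehypertrophic replicate 4, below the 0.28 to 0.32 of the others, and 1.23 in hypertrophic replicate 1, above the 0.98 to 1.01 of the others. Hey1 was -0.81 in proliferative replicate 4, below -0.63 to -0.61, and -1.52 in prehypertrophic replicate 4, below -1.30 to -1.26. Proliferative replicate 4 and prehypertrophic replicate 4 share array 6, on which the ratio of Hey1 was -0.75, close to the -0.67 of array 5. The cause of these deviations was not tested.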

How the results depend on the processing

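Of 726 values of single probes under the alternatives, 677 kept their direction and side of the threshold, 36 lost their call, 13 gained one and 0 reversed. The number of Notch genes called was 6 to 8 for hypertrophic against proliferative and 5 to 6 for hypertrophic against prehypertrophic. For prehypertrophic against proliferative it was 3 with the dye-exchanged arrays averaged, which leaves fewer ratios, against 5 in the analysis reported, and 4 to 6 under all other alternatives, leaving out each array included. With dye-exchanged arrays averaged, the lost calls among the brightest probes were Dll1 (adjusted p = 0.0532) and Dll4 (0.0655) for prehypertrophic against proliferative and Notch1 (0.0595) for hypertrophic against prehypertrophic. Over the whole array, 22107, 16890 and 21489 probes were called for hypertrophic against proliferative, prehypertrophic against proliferative and hypertrophic against prehypertrophic, and with the probes of a gene averaged, which leaves fewer features, 14711, 10765 and 14030. Among the probes present in each fit, no call changed with median centring, without further normalization, with another background filter or with 1 probe per gene. The same held with flagged spots kept or with robust moderation. The filter that asked for signal well above background in all 12 samples left out Jag1 probe A_52_P634090. The fit with 1 probe per gene left out the dimmer probes of Notch1, Notch2 and Jag1. Calls of the probes left out were not tested there. Deviations of samples with the same replicate number had r of 0.219 to 0.554 in the proliferative and prehypertrophic zones. In pairs with the hypertrophic zone r was -0.254 to 0.412, and the 0.412 came from 2 samples of the same array. Samples that share an array had r of 0.234 to 0.554, so number and array cannot be fully told apart. With the replicate block, in a fit of separate channels that keeps flagged spots, 8, 5 and 6 Notch genes were called for hypertrophic against proliferative, prehypertrophic against proliferative and hypertrophic against prehypertrophic. Notch1 on its brighter probe then lost its call for hypertrophic against prehypertrophic (0.10, adjusted p = 0.414), and Jag2 fell in the hypertrophic zone (-0.54 against the proliferative zone, adjusted p = 0.00131). For prehypertrophic against proliferative, the block ended the call of 1 Notch2 probe (adjusted p = 0.0513) and no other. The standard error limits what can be seen, and it was over 0.1 for Notch4, Jag1, Jag2 and Hes1. Marker sums without saturated genes were added after seeing the data.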
